A study of Mus musculus with 2 samples.

Results

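Arterial endothelial cells of hindlimb muscle were selected on UMI counts (unique molecular identifiers, which count captured mRNA molecules) from 2 droplet-based single-cell RNA-Seq libraries of aged mice. Barcodes with 300 to 5000 detected genes, under 20% mitochondrial UMIs and under 0.25% hemoglobin beta UMIs were kept. A barcode was then taken as endothelial where Pecam1, Cdh5, Kdr, Emcn, Egfl7 and Esam summed to at least 3 UMIs and Pdgfra, Ptprc, Pax7 and Rgs5 to at most 1. It was taken as arterial where Sema3g, Gja5, Bmx and Gja4 summed to at least 2 UMIs and to more than the venous genes Vwf, Selp, Ackr1 and Lrg1. This chose 348 of 27838 barcodes, or 348 of the 4541 gated endothelial cells. Of these, 136 came from the ATRA+agonist library and 212 from the DMSO vehicle library, and no arterial barcode sequence occurred in both libraries.

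The mice were 24-month-old female C57Bl/6J mice, a wild-type strain with no transgene. The ATRA+agonist mice received 3 intramuscular injections within a week of all-trans retinoic acid (ATRA), CD3254, an agonist of the retinoid X receptor RXRα, and BMS961, an agonist of the retinoic acid receptor RARγ. The DMSO vehicle mice received the solvent. Both groups were injected in the tibialis anterior, gastrocnemius and quadriceps, and cells of 2 mice were pooled into 1 library per group, so that the 2 mice of a library cannot be separated. There is no replicate, every difference between the groups is a difference between 2 libraries, and no test was possible. All intervals below are 95% intervals for counting error, and the spread among animals or among cells is not in them.

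Arterial endothelial cells line the vessels that bring blood to the capillary bed. They are set apart from venous and capillary endothelium by Notch signaling, by connexin gap junctions that carry dilating signals along the vessel and by the elastic matrix beneath them. Sema3g encodes a secreted semaphorin, Gja5 and Gja4 encode the connexins Cx40 and Cx37, and Bmx encodes a tyrosine kinase of arterial endothelium. Endothelial cells also display peptides on MHC class I, and after interferon-γ they can display them on MHC class II, which is otherwise a property of professional antigen-presenting cells. Retinoic acid is the active form of vitamin A and acts through RAR and RXR receptors in the nucleus.

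The deposited matrices held 65197625 UMIs over 10444 ATRA+agonist barcodes and 109343486 UMIs over 17394 DMSO vehicle barcodes. The filters left 7467 and 7517 barcodes, among which 12 barcode sequences were shared by both libraries. Arterial cells were as deep in one library as in the other, with medians of 4760 UMIs (ATRA+agonist) and 4682 UMIs (DMSO vehicle) and of 2118 and 2062 detected genes. Their summed depth was 716902 and 1096423 UMIs. Hemoglobin transcripts differed between the libraries, as 83.8% of ATRA+agonist and 99.5% of DMSO vehicle arterial cells held at least 1 UMI of a red blood cell gene. The hemoglobin filter alone removed 1 barcode that passed the arterial gate from the ATRA+agonist library and 32 from the DMSO vehicle library, and its part in the shares below was not tested beyond the recount without it.

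The genes that chose the cells are described here and support nothing. On build GRCm38 Sema3g lies at chr14:31217860-31230352, Gja5 at chr3:96904693-97077416, Bmx at chrX:164192842-164258193 and Gja4 at chr4:127311421-127314039. Sema3g had a UMI in 89.7% of ATRA+agonist and 95.3% of DMSO vehicle arterial cells, at 501 and 577 CPM (UMIs per 1000000 UMIs summed over the arterial cells). Gja5 had a UMI in 38.2% and 31.6% of the cells, at 123 and 119 CPM. Bmx was seen in 32.4% and 24.1%, and Gja4 in 49.3% and 37.7%. Most cells were therefore chosen on Sema3g with or without a further marker, and all 4 markers were seen together in 14 and 18 cells. The median sum of the 4 markers was 3.50 UMIs with ATRA+agonist and 3 with DMSO vehicle. Just inside the threshold, 44 and 71 cells held exactly 2 UMIs. Just outside it, 176 and 249 gated endothelial cells held 1 UMI, and a further 20 and 19 cells held 2 or more but not more than their venous sum.

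Arterial cells made up a smaller share of the endothelium in the ATRA+agonist library. They were 136 of 2284 gated endothelial cells (5.95%, exact Clopper-Pearson interval 5.02 to 7.0) with ATRA+agonist and 212 of 2257 (9.39%, 8.22 to 10.7) with DMSO vehicle. The ratio of the shares was 0.634 (0.515 to 0.780). Over all filtered barcodes the shares were 1.82% and 2.82%, a ratio of 0.646 (0.522 to 0.799). The ratio of the whole endothelial gate over filtered barcodes was 1.02 (0.970 to 1.07). Venous-gated cells, chosen by at least 2 UMIs of the 4 venous genes and more of them than of the arterial genes, were 8.80% and 9.70% of the gated endothelium, a ratio of 0.907 (0.756 to 1.09). Cells with a single arterial UMI were also a smaller share with ATRA+agonist, with a ratio of 0.698 (0.581 to 0.840). Under every other setting of filters and gate, the ratio over gated endothelial cells stayed between 0.603 and 0.688. Over filtered barcodes it stayed between 0.584 and 0.777. These settings included removal of barcodes marked as doublets, which took 20 of the 136 and 12 of the 212 cells. The highest values, 0.688 and 0.777, came from gating after each barcode was randomly thinned to 1000 UMIs, which left only 27 and 37 arterial cells. Since the gate reads counts of 4 genes, fewer arterial cells and fewer transcripts of these genes per cell cannot be told apart.

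**Figure D1:**
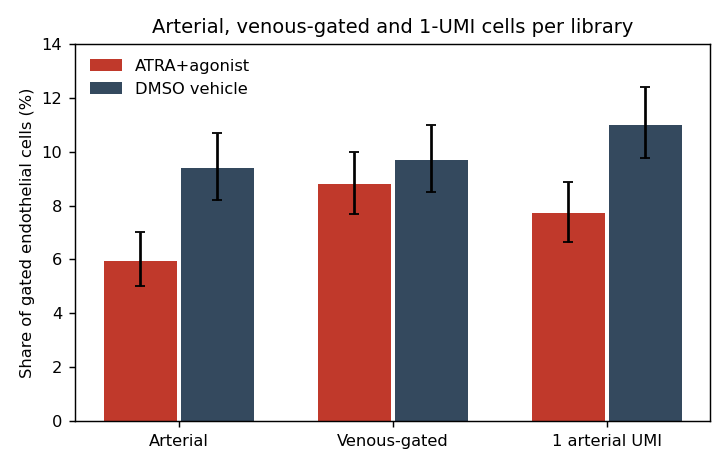
Shares of gated endothelial cells (%, linear axis) that were arterial, venous-gated or held 1 arterial UMI, in the ATRA+agonist (red) and DMSO vehicle (dark) libraries; whiskers are exact Clopper-Pearson 95% intervals for counting error. The arterial bars stand at 5.95% and 9.39%, and the venous-gated bars at 8.80% and 9.70%.

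The label was checked with genes that the gate did not use. Of 32 other arterial markers, 30 reached 50 UMIs in arterial cells, and 16 of these 30 were at least 2-fold higher in arterial than in the remaining gated endothelial cells in both libraries, against 4.29% of all 5366 genes with 50 UMIs. None was 2-fold lower in both, against 1.16% of all genes. Their median log2 ratio over the remaining endothelium was 1.27 with ATRA+agonist and 1.20 with DMSO vehicle, where that over all genes was 0.01 and 0.02. Against venous-gated cells, 19 of the 30 were 2-fold higher in both libraries (3.52% of all genes), with medians of 1.54 and 1.60, and none was 2-fold lower (1.38% of all genes). The data therefore carry the arterial label beyond the 4 genes of the gate. Genes are not replicates, and each library gives 1 reading of each difference.

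Named by their size, the 15 genes most raised over the remaining endothelium included 4 members of that arterial list, Gkn3, Clu, Nebl and Vegfc. The list held 30 of the 5366 genes with at least 50 UMIs, and the 15 were drawn from genes with at least 100 UMIs. Gkn3, a gastrokine known from arterial endothelium, stood at 163 CPM in ATRA+agonist and 71.1 CPM in DMSO vehicle arterial cells, and at 1.61 and 0.302 CPM in the remaining endothelial cells. Clu, which encodes the chaperone clusterin, had log2 ratios of 5.22 and 4.30 over the remaining cells. Vegfc, the growth factor of lymphatic vessels, had ratios of 3.61 and 3.54. Over the venous-gated cells the ratios were smaller, at 3.70 and 4.97 for Gkn3, 1.58 and 1.68 for Clu and 2.18 and 2.34 for Vegfc.

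The other 11 were Cytl1, Thsd7b, Igf2, Gata6, Hs3st1, Tox2, Chrm3, Cd24a, Vcam1, Plcg2 and Efna5. Cytl1, which encodes a small secreted cytokine-like protein, stood at 550 and 142 CPM in arterial cells and below 1 CPM in the remaining cells of either library, at 0.161 and 0.755 CPM. In venous-gated cells it stood at 288 and 204 CPM, so it marked the larger vessels of both kinds. Vcam1, the adhesion receptor for leukocytes, shared this pattern. It stood at 173 and 329 CPM in arterial cells, at 425 and 362 CPM in venous-gated cells and at 8.68 and 25.1 CPM in the remaining cells. Chrm3 encodes the M3 muscarinic receptor through which acetylcholine dilates vessels, and it was found in 39.7% and 34.4% of arterial cells. Efna5 encodes an ephrin ligand and Igf2 an insulin-like growth factor.

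Capillary markers were low in arterial cells. The median log2 ratio of 16 capillary markers over the remaining cells was -1.13 with ATRA+agonist and -0.84 with DMSO vehicle, and 6 of them were at least 2-fold lower in both libraries, against 1.16% of all genes. The water channel Aqp1 had ratios of -3.21 and -2.31, and the carbonic anhydrase Car4 had ratios of -1.82 and -1.59. Fabp4, the fatty acid carrier of capillary endothelium, still stood at 9409 and 11073 CPM in arterial cells, with ratios of only -0.67 and -0.38. The 10 lowest genes were Dcn, Aqp1, Hdac9, Fmo2, Bmp6, Nrp2, Gm12002, Car8, Car4 and Stxbp6. Nrp2, a coreceptor of venous and lymphatic endothelium, had ratios of -1.99 and -1.65 over the remaining and -2.63 and -2.72 over the venous-gated cells. The Dcn count rested on few cells and is given with the other cell classes below.

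**Figure D2:**
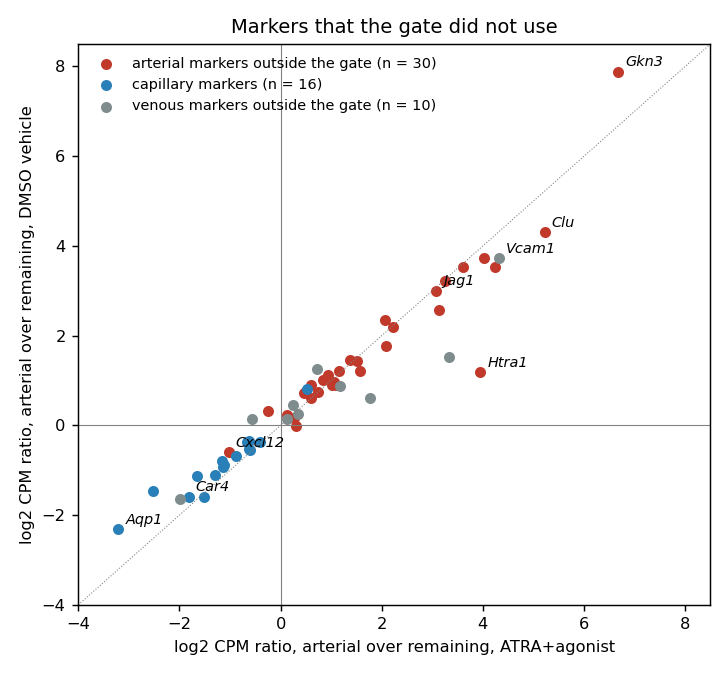
Each point is a marker gene outside the gate with at least 50 UMIs, placed by its log2 CPM ratio of arterial over remaining gated endothelial cells in the ATRA+agonist library (x axis) and in the DMSO vehicle library (y axis); the dotted line marks equal ratios. Arterial markers (red) spread from -1.03 for Cxcl12 to 6.67 for Gkn3 on the x axis, capillary markers (blue) lie mostly below 0, and Htra1 lies off the line at 3.95 and 1.18.

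The arterial cells were not uniform. Cells with a UMI of Gja5 or Bmx were 71 of 136 (52.2%) with ATRA+agonist and 89 of 212 (42.0%) with DMSO vehicle, with medians of 5563 and 5725 UMIs. Cells with neither had medians of 3975 and 4418 UMIs, so that depth moved with this division and its part was not tested. All 16 capillary markers were lower in the cells with Gja5 or Bmx in both libraries, with median log2 ratios of -1.48 and -1.55, and 10 of them were at least 2-fold lower in both. Of all 5366 genes tested, 2.12% were at least 2-fold higher and 1.70% at least 2-fold lower across this division in both libraries. Car4 stood at 2.36 and 3.66 CPM in the cells with Gja5 or Bmx and at 198 and 162 CPM in those with neither. Aqp1 stood at 33.0 and 89.7 CPM against 693 and 750 CPM, and Fabp4 at 6593 and 7670 CPM against 13478 and 14449 CPM. Of the 30 arterial markers outside the gate, 8 were at least 2-fold higher in cells with Gja5 or Bmx in both libraries and 1 at least 2-fold lower. Their median log2 ratios across this division were 0.45 and 0.30. The arterial label was not checked in the cells with neither alone, and these were 58.0% of DMSO vehicle arterial cells.

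In the cells with Gja5 or Bmx, 7 of 20 genes of the basement membrane and elastic fiber were at least 2-fold higher in both libraries, against 2.12% of all genes. A further 2 were at least 2-fold lower in both, against 1.70%. Mgp, a matrix protein that keeps arterial walls from calcifying, stood at 3028 CPM with Gja5 or Bmx and 232 CPM with neither in the ATRA+agonist library. The DMSO vehicle values were 1533 and 185 CPM. Eln, which encodes elastin, and Fbln5, which encodes an elastic fiber assembly protein, were picked from this list after their values were seen. Eln stood at 378 against 109 CPM with ATRA+agonist and at 284 against 124 CPM with DMSO vehicle, and Fbln5 at 533 against 208 CPM and at 566 against 182 CPM. In both libraries 6 of the 20 were lower in cells with Gja5 or Bmx. Among these Col4a1 and Col4a2, chains of collagen IV, had log2 ratios of -0.89 and -1.16 with ATRA+agonist and of -1.11 and -1.48 with DMSO vehicle, and Hspg2, the core protein of perlecan, of -1.29 and -1.35. Klf2, a transcription factor induced by blood flow, was level across this division at 2912 and 2675 CPM with ATRA+agonist and 3374 and 3352 CPM with DMSO vehicle.

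The comparison of ATRA+agonist with DMSO vehicle asked what the injected retinoid cocktail changed in aged muscle, read here in arterial cells. Transcripts of antigen presentation and of many interferon-response genes were lower with ATRA+agonist. Red blood cell genes were lower too, with a median log2 ratio of -1.61 and all 4 tested at least 2-fold lower, among them Hbb-bs, a beta-globin gene, at 212 against 645 CPM with a ratio of -1.60 (-1.87 to -1.35). The same list had medians of -1.81 in venous-gated, -1.35 in remaining endothelial and -1.80 in mesenchymal cells. Of the 5366 genes with at least 50 UMIs, 112 (2.09%) were at least 2-fold lower and 70 (1.30%) at least 2-fold higher, and the median log2 ratio of all genes was 0.02. These counts are past a fold, not past a test. They followed depth, since after each cell was thinned to 1000 UMIs, with the 50-UMI minimum kept, 47 genes were lower and 14 higher.

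MHC class II genes were the most reduced list. All 6 members with 50 UMIs were at least 2-fold lower with ATRA+agonist, against 2.09% of all genes, and their median log2 ratio was -3.87. Cd74, the invariant chain that guides class II molecules to the endosome, had 83 UMIs in the ATRA+agonist and 1872 UMIs in the DMSO vehicle arterial cells. This was 116 against 1707 CPM, a log2 ratio of -3.88 (-4.22 to -3.56). The ATRA+agonist count rested in part on a single cell with 49 of the 83 UMIs, and without the cell with most UMIs in each library the ratio was -5.11.

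The class II chains themselves moved alike. H2-Aa, the α chain of I-A, stood at 25.1 against 436 CPM with a log2 ratio of -4.12 (-4.89 to -3.44). H2-Ab1, its β chain, stood at 47.4 against 389 CPM with a ratio of -3.04 (-3.59 to -2.53). H2-Eb1, the β chain of I-E, stood at 12.6 against 369 CPM with a ratio of -4.88 (-6.02 to -3.94). The peptide-loading genes H2-DMa and H2-DMb1 had ratios of -3.86 and -2.75. Ciita, the master activator of class II genes, had 0 UMIs in the ATRA+agonist and 25 UMIs in the DMSO vehicle arterial cells, and was named after its values were seen.

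Class II transcripts were a feature of a large minority of DMSO vehicle arterial cells. Cells with UMIs of at least 2 of Cd74, H2-Aa, H2-Ab1 and H2-Eb1 were 8 of 136 (5.88%, 2.57 to 11.3) with ATRA+agonist and 91 of 212 (42.9%, 36.2 to 49.9) with DMSO vehicle. In venous-gated cells the shares were 8.46% and 47.9%, and in the remaining endothelium 1.23% and 13.3%. In mesenchymal cells the shares were 0.957% and 0.623% at medians of 9542 and 7791 UMIs. The part of free RNA in the shares of any of these populations was not tested. After thinning to 1000 UMIs, Cd74 was seen in 4 of 135 (2.96%) and 79 of 209 (37.8%) arterial cells.

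**Figure D3:**
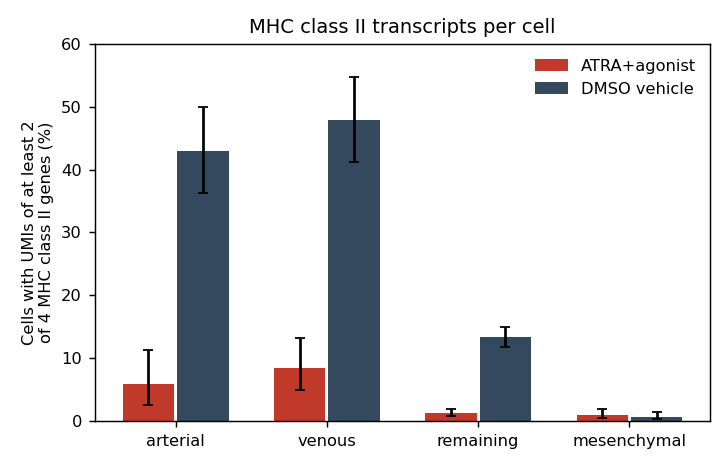
Share of cells (%, linear axis) with UMIs of at least 2 of Cd74, H2-Aa, H2-Ab1 and H2-Eb1 in arterial, venous-gated, remaining gated endothelial and mesenchymal cells of the ATRA+agonist (red) and DMSO vehicle (dark) libraries; whiskers are exact Clopper-Pearson 95% intervals for counting error. Arterial cells stand at 5.88% and 42.9%, and mesenchymal cells at 0.957% and 0.623%.

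With DMSO vehicle these genes were higher in the larger vessels than in the remaining endothelium. Cd74 stood at 1707 CPM in arterial, 1810 CPM in venous-gated and 287 CPM in the remaining cells of that library. With ATRA+agonist it stood at 116, 116 and 137 CPM. The share of cells with UMIs of at least 2 class II genes was still higher there in arterial (5.88%) and venous-gated cells (8.46%) than in the remaining endothelium (1.23%). The arterial and venous-gated cells were also deeper, at medians of 4760 and 5053 UMIs against 2985 UMIs, and the part of depth in this share was not tested. Immune cell markers were near 0 in the arterial cells, with 6 of 11 such markers at 0 in each library, a UMI of any of them in 4.41% and 6.13% of cells and at most 3 UMIs in a cell. The gate had already limited Ptprc with the other excluded genes to at most 1 UMI, so low immune counts follow in part from the selection. The part of immune cells in the class II counts was not tested. Within the arterial cells Cd74 was higher in cells with Gja5 or Bmx, at 2582 against 839 CPM with DMSO vehicle, and the treatment median of the list was -3.91 in both kinds of cell.

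**Figure D4:**
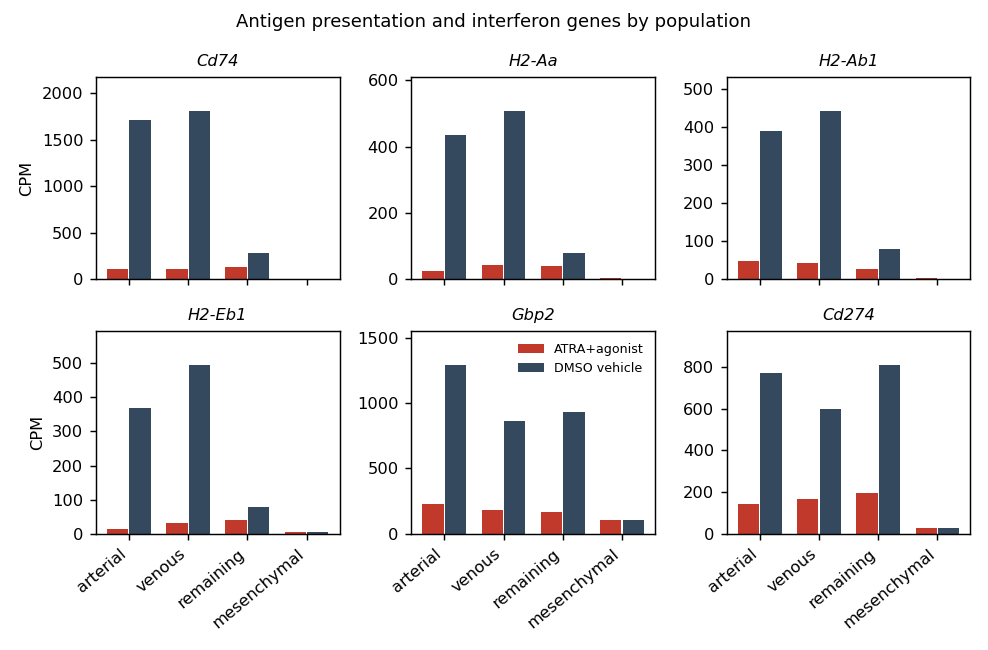
CPM (linear axes from 0, a scale of its own for each gene) of 4 MHC class II genes and of the interferon-response genes Gbp2 and Cd274 in 4 populations, with ATRA+agonist (red) and DMSO vehicle (dark). In arterial cells each gene is lower with ATRA+agonist, and with DMSO vehicle the class II genes stand higher in arterial and venous-gated than in remaining cells.

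MHC class I presentation was lower by a smaller factor. All 18 members had 50 UMIs, and their median log2 ratio was -0.93. The fall was not particular to arterial cells, since the same list had medians of -0.78 in venous-gated, -0.77 in remaining endothelial and -0.24 in mesenchymal cells. Of these, 7 were at least 2-fold lower, against 2.09% of all genes, and none 2-fold higher, against 1.30%. B2m, the light chain of every class I molecule, stood at 1512 against 3036 CPM with a ratio of -1.01 (-1.11 to -0.91). Tap1, a subunit of the transporter that brings peptides into the endoplasmic reticulum, had a ratio of -1.56, and the immunoproteasome gene Psmb9 a ratio of -1.06. The heavy chains H2-K1 and H2-D1 had ratios of -0.76 and -0.50. Genes of this family are near-identical in places, so reads may be lost or split among them.

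Interferon-response genes were lower in part. Of 41 members, 17 were at least 2-fold lower, against 2.09% of all genes, and none 2-fold higher, against 1.30%. Their median log2 ratio was -0.91 where the whole was 0.02. The same list had medians of -0.61 in venous-gated, -0.79 in remaining endothelial and -0.16 in mesenchymal cells. Earlier results of these libraries were known for this list, so its direction is no independent evidence. Gbp2, a GTPase that attacks the vacuoles of intracellular pathogens, had 160 against 1414 UMIs, or 223 against 1290 CPM, with a ratio of -2.53 (-2.78 to -2.29). It was seen in 37.5% of ATRA+agonist and 80.7% of DMSO vehicle arterial cells. Cd274, which encodes the T cell inhibitor PD-L1, had 103 against 844 UMIs with a ratio of -2.42 (-2.73 to -2.13). Cxcl9, a chemokine for T cells, had 7 against 130 UMIs, and Ubd, which encodes a ubiquitin-like modifier, had 4 against 218 UMIs with a ratio of -5.16 (-7.04 to -3.78).

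Other members differed less. Iigp1, an immunity-related GTPase, stood at 2754 against 2878 CPM with a ratio of -0.06 (-0.15 to 0.02). Irf1, a transcription factor that interferon induces, stood at 1180 against 1061 CPM with a ratio of 0.15 (0.02 to 0.28). Isg15, a ubiquitin-like protein of the type I response, had a ratio of -0.31 (-0.45 to -0.17), and Bst2, which tethers virus particles, a ratio of -0.87 (-1.04 to -0.69). The list thus ran from Ubd at one end to Irf9 at 0.19, the latter picked for its place in that order. The Gbp genes are paralogs with shared sequence, so reads may be split or lost among them.

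The promoters of members that stood apart in this comparison are shown because their sequences can be read beside these values. RefSeq windows on build GRCm38.p6, from 250 bases before to 50 after the start of the gene, matched 30 of the 41 interferon-response genes. Capitals mark the ISRE-type letters GAAA, any 2 bases and GAAA, a pattern bound by factors of the IRF family, searched on both strands. Of the 30 genes, 18 held these letters, against 3.44% of all 32851 windows. The units differ, since a gene was counted where any of its windows matched. Of 26 matched arterial markers outside the gate, 5 held the letters. The first 3 genes printed were lower with ATRA+agonist, with log2 ratios of -2.53 for Gbp2, -1.47 for Gbp5 and -1.76 for Igtp. The next 2 stood level, at -0.13 for Irgm2, picked after its value was seen, and 0.15 for Irf1. H2-Eb1 is shown for the class II genes.
Gbp2: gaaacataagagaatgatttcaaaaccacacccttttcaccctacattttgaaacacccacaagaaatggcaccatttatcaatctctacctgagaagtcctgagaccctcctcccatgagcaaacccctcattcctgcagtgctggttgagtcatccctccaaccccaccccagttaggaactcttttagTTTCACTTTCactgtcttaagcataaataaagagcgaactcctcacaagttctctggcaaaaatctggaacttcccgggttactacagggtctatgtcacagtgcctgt
Gbp5: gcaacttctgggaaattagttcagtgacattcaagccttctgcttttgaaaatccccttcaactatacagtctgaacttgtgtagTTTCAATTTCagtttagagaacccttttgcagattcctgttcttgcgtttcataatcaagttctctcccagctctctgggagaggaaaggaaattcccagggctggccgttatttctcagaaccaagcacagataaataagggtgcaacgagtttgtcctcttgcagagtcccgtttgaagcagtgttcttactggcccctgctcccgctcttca
Igtp: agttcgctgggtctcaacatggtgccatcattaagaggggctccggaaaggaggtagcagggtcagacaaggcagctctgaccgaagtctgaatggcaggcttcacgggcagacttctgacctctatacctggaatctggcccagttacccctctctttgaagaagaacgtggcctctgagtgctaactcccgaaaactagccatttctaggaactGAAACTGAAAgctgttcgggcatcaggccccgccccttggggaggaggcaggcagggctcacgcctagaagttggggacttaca
Irgm2: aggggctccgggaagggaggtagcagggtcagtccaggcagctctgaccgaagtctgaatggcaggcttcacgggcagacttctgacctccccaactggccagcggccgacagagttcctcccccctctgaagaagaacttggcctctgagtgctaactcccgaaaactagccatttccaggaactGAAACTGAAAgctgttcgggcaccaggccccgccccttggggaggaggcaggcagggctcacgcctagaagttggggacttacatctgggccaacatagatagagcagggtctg
Irf1: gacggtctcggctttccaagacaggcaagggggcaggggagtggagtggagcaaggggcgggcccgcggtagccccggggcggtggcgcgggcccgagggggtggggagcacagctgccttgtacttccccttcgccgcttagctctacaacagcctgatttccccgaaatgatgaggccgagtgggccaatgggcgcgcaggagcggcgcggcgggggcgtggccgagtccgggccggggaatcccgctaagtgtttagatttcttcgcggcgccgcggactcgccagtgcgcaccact
H2-Eb1: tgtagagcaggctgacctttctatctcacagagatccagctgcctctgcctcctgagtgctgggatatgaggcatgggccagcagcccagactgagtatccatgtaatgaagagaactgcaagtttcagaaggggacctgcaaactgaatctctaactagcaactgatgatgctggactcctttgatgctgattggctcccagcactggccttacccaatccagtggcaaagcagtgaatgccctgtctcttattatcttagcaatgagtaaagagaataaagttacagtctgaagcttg
In order these windows are chr3:142620413-142620712, chr3:142496684-142496983, chr11:58199306-58199605, chr11:58214727-58215026, chr11:53769764-53770063 and chr17:34305617-34305916, all on the plus strand and each spanning the start of its gene. Irf1 has 2 windows listed and the first is printed. Gbp2, Gbp5, Igtp and Irgm2 each held 1 match and Irf1 held none. None of the 4 class II genes that matched held them in its window. The RAR and RXR response element, searched as 2 copies of AGGTCA in the same direction with 5 bases between them, was in 3 of the 32851 windows and in none of those that matched the 10 largest rises or falls. A match is a description of letters and not a binding site.

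The 10 largest falls under the naming rule were Ubd, Cxcl9, Ido1, Zbp1, Wars, Gbp2, Gbp6, Cd274, Casp12 and Sema4a. Of these, 6 were members of the interferon-response list, which held 41 of the 5366 genes with at least 50 UMIs. Ido1, which breaks down tryptophan, had a log2 ratio of -3.51 (-4.86 to -2.42), and Wars, which charges tRNA with tryptophan, stood at 110 against 655 CPM with a ratio of -2.57 (-2.93 to -2.23). Casp12, an inflammatory caspase, had a ratio of -2.33, and Sema4a, a semaphorin of immune cells, a ratio of -2.04. All 10 were also lower in venous-gated and in remaining cells, where Wars had ratios of -1.75 and -2.26 and Cxcl9 ratios of -0.78 and -1.02.

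Genes that were higher with ATRA+agonist were fewer and had lower counts. The 10 largest under the naming rule, which left out genes with under 100 UMIs, genes higher outside the endothelial gate and genes whose sign turned after thinning or doublet removal, were Ccl21a, Robo2, Cytl1, Tmem158, Lrrc3b, Gkn3, Sept4, Hacd4, Thsd7a and Klf10. Cytl1 was seen in 28.7% of ATRA+agonist and 17.0% of DMSO vehicle arterial cells and had a log2 ratio of 1.95 (1.68 to 2.23). Gkn3 had a ratio of 1.20 (0.77 to 1.63) and was seen in 22.8% and 14.2% of cells. It stood at 262 against 110 CPM in cells with Gja5 or Bmx. In cells with neither it stood at 20.5 against 32.7 CPM, on 6 and 18 UMIs. Robo2, a guidance receptor for Slit proteins, had 74 against 27 UMIs and a ratio of 2.07 (1.41 to 2.76). Klf10, a transcription factor induced by TGF-β, had a ratio of 1.03 (0.53 to 1.55).

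A pair of these rises rested on single cells. Ccl21a, a chemokine of lymphatic endothelium, had 211 UMIs with ATRA+agonist, 198 of them in 1 cell, and 0 with DMSO vehicle. That cell held 246 UMIs of the 8 lymphatic markers, and Ccl21a was seen in 1.47% of ATRA+agonist arterial cells. Tmem158 had 39 of its 77 UMIs in 1 cell, and its ratio of 1.49 became 0.71 without the top cell of each library. On the DMSO vehicle side 1 arterial cell held 444 UMIs of mesenchymal progenitor markers, and Dcn and Gsn, at ratios of -2.74 and -3.92, became -0.29 and -1.62 without the top cells.

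**Figure D5:**
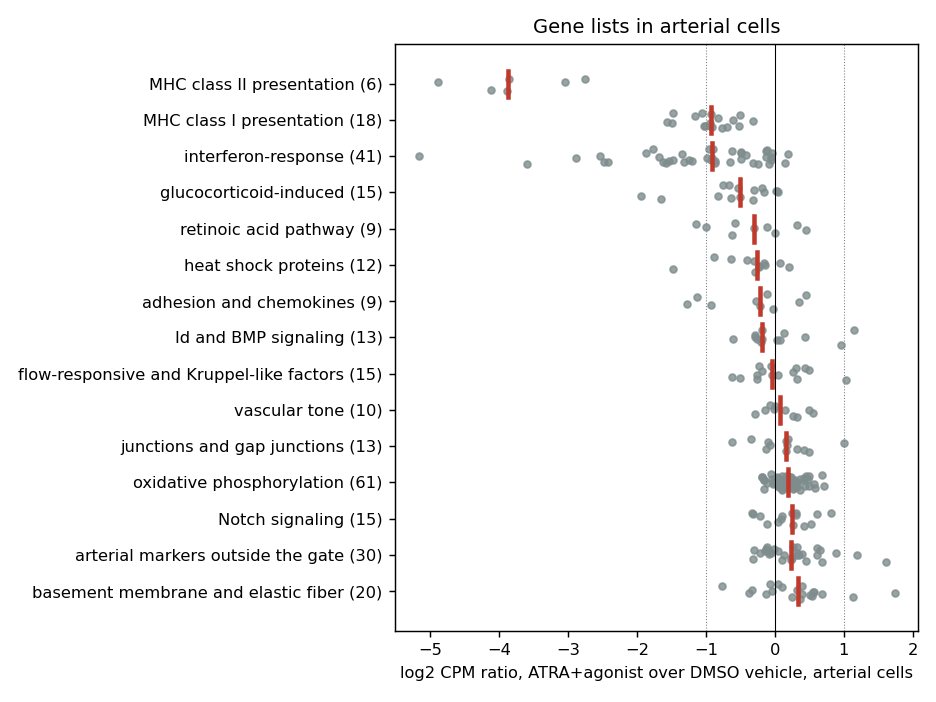
Each grey point is a gene with at least 50 UMIs, placed by its log2 CPM ratio of ATRA+agonist over DMSO vehicle in arterial cells (x axis) and grouped by list (y axis, number of genes in parentheses); the red bar is the median of the list and the dotted lines mark 2-fold. MHC class II genes lie between -4.88 and -2.75, and the arterial marker list has a median of 0.24.

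Arterial markers differed by less than 2-fold for most members. The 30 arterial markers outside the gate had a median log2 ratio of 0.24. Of these, 2 were at least 2-fold higher, Gkn3 and Htra1, against 1.30% of all genes, and none 2-fold lower, against 2.09%. Htra1, a secreted protease that acts on matrix and TGF-β, stood at 114 against 37.4 CPM with a ratio of 1.61 (1.06 to 2.19). Vegfc was higher by less than 2-fold, at 668 against 360 CPM with a ratio of 0.89 (0.70 to 1.09), and after thinning it was seen in 40.7% against 20.6% of cells. Tm4sf1, a tetraspanin-like protein of endothelial cells, stood at 2663 against 2680 CPM, and the Notch ligand Jag1 at 301 against 326 CPM. The median became 0.17 after thinning, and the same list had medians of 0.35 in venous-gated and 0.15 in remaining endothelial cells. Within the arterial cells the list median was 0.22 in cells with Gja5 or Bmx and 0.13 in those with neither.

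Notch and matrix genes had medians above 0, and most members lay within 2-fold. Of 15 Notch genes none was past 2-fold in either direction, against 1.30% of all genes higher and 2.09% lower. Their median was 0.25. The 4 members with most UMIs, Maml2, Jag1, Notch1 and Adam10, had ratios of 0.10, -0.11, -0.21 and 0.31. Dll4, a Notch ligand of arterial endothelium, had a ratio of 0.62 (0.26 to 0.99), and Nrarp, a Notch target, a ratio of 0.81 (0.27 to 1.35). Both were picked after their values were seen and were the only 2 of the 15 with a counting interval above 0. Over all 5366 genes, 555 had such an interval, so this count is not read as a result about Notch genes. Of 20 matrix genes, 2 were at least 2-fold higher, against 1.30% of all genes, and none lower, against 2.09%. Their median was 0.34, and it was 0.34 in cells with Gja5 or Bmx and 0.06 in those with neither. Cells with Gja5 or Bmx were 52.2% of ATRA+agonist and 42.0% of DMSO vehicle arterial cells, and the part of this difference was not tested. Mgp stood at 1884 against 856 CPM with a ratio of 1.14 (1.02 to 1.26) and was seen in 27.2% and 27.4% of cells. After thinning it was seen in 20.7% and 17.2% of cells. The mesenchymal cells of the same libraries held it at 3424 and 3769 CPM, and their part in the arterial value was not tested. Bgn, a small proteoglycan, had a ratio of 1.74 (1.17 to 2.33), and Ltbp4, which anchors TGF-β in the matrix, a ratio of 0.69 (0.51 to 0.88).

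Genes of the retinoic acid pathway, on which the injected compounds act, were mostly too low to read. Of 27 members 9 had 50 UMIs, and their median log2 ratio was -0.30. Of the 9, 2 were at least 2-fold lower, against 2.09% of all genes, and none higher, against 1.30%. Stra6, the retinol receptor, had 0 UMIs in the arterial cells of both libraries, and so had Cyp26a1 and Crabp1, where a count of 0 allows up to 3 UMIs. The receptor RARγ, the target of BMS961, was seen with 30 against 46 Rarg UMIs, or 41.8 against 42.0 CPM. Rxra, the target of CD3254, had 5 against 28 UMIs with a ratio of -1.87 (-3.60 to -0.48). Rara and Rarb had 20 against 47 and 12 against 21 UMIs.

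Among targets and enzymes, Tgm2, a transglutaminase that retinoic acid induces in many cells, stood at 187 against 375 CPM with a ratio of -1.0 (-1.30 to -0.72). Cyp26b1, which degrades retinoic acid, had 16 against 54 UMIs and a ratio of -1.14 (-2.05 to -0.32). It was 0.14 where the venous comparison of the gate was dropped, which added 20 and 19 cells. Dhrs3, which returns retinaldehyde to retinol, had a ratio of 0.46 (-0.05 to 0.97), and Rbp7, a retinol-binding protein of endothelium, a ratio of -0.30 (-0.52 to -0.09). Of the other members with most UMIs, Fabp5 had a ratio of -0.11 (-0.36 to 0.15). Pparg had a ratio of -0.58 (-0.92 to -0.26), and its sign turned after thinning. Stra6, Cyp26a1, Crabp1, the receptors and Dhrs3 were named after their values were seen. The median of the list was -0.01 when the gate asked for 3 arterial UMIs.

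Further lists are given with their genes past 2-fold. Over all genes 2.09% were at least 2-fold lower and 1.30% at least 2-fold higher, and 539 of the 5366 had a counting interval below 0. Of 15 glucocorticoid-induced genes 2 were at least 2-fold lower, Fkbp5 with a ratio of -1.94 and Zbtb16, a zinc finger repressor, with 67.0 against 211 CPM and a ratio of -1.65 (-2.13 to -1.20), 7 had a counting interval below 0, and the median was -0.51. Of 13 genes of Id and BMP signaling 1 was past 2-fold, Bmp4 at 1.15 (0.58 to 1.74), which became 0.27 with doublets removed. Id1 and Id3, which hold back basic helix-loop-helix factors, had ratios of -0.28 and -0.60. Of 9 adhesion and chemokine genes 2 were lower, the death ligand Tnfsf10 at -1.27 (-1.68 to -0.88) and the neutrophil chemokine Cxcl1 at -1.13 (-1.75 to -0.55). Genes of vascular tone had a median of 0.07 with none of 10 past 2-fold, among them Edn1, the vasoconstrictor endothelin, at 0.32. The 61 genes of oxidative phosphorylation had a median of 0.19 with none past 2-fold, and 12 heat shock genes a median of -0.26 with 8 intervals below 0 and 1 gene 2-fold lower, Hspa1b at -1.48, a near-identical copy of Hspa1a.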

How the data were processed

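Per the file headers and the study's methods, the deposited files hold unnormalized UMI counts for each gene in each barcode, made by the authors with Cell Ranger 7.2.0 from 10x Genomics 3′ libraries on build mm10, and limited to barcodes that Cell Ranger called as cells. The labels also name a full-length protocol that the headers do not bear out. UMIs count molecules once despite PCR copies. The annotation release is not given in the sources used here, and positions come from GENCODE M21.

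Filters were those of the study. No doublets were removed in the main values, and a rebuilt artificial-neighbor score that marks 7.5% of barcodes was an alternative. UMIs were summed over the arterial cells of each library and expressed as CPM of that sum. Log2 ratios are ATRA+agonist over DMSO vehicle with exact conditional 95% intervals, a 0 taking 3 counts as its limit, and shares have exact Clopper-Pearson 95% intervals. Intervals cover counting error only. With 1 library per group no test was run, and genes were read as higher or lower past 2-fold with at least 50 UMIs. Venous-gated cells had at least 2 UMIs of Vwf, Selp, Ackr1 and Lrg1 and more of these than of the arterial genes. Remaining cells were all other gated endothelial cells. Mesenchymal cells had at least 2 Pdgfra UMIs and none of the endothelial genes or Ptprc. The interval was tested on simulated data.

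Named were the gate genes, in each list the 4 members with most UMIs and those past 2-fold, the 10 largest rises and falls with at least 100 UMIs that were at least as high in arterial cells as outside the endothelial gate and kept their sign after thinning and doublet removal, and the 15 highest and 10 lowest genes against the remaining endothelium. Not every gene under this rule is printed. A gene outside the rule is said to be chosen after its values were seen. The members, lists and comparisons were chosen with earlier results of these data known. Alternatives covered filters, gate limits, doublets, depth, scaling and UMI minimum. Leaving out cells with over 5 lymphatic or mesenchymal marker UMIs, leaving out the top cell of a gene, and all alternatives for the MHC class II list were added after the data were seen. Python 3.11.15, numpy 2.4.6, scipy 1.17.1 and scikit-learn 1.9.0 were used.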

Additional observations from a re-analysis of the deposited data

Results flagged for a closer look

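Some genes had a log2 ratio of ATRA+agonist over DMSO vehicle in arterial cells of the opposite sign from that in another endothelial population, with both counting intervals on their side of 0. With 1 library per group these differences were not tested. A first set was higher in arterial and lower in the remaining endothelial cells. Mgp had a ratio of 1.14 in arterial and -3.50 in remaining cells, Bgn of 1.74 and -2.25, Htra1 of 1.61 and -1.15, Edn1 of 0.32 and -0.25, and Rora, a nuclear receptor of the clock, of 0.87 and -0.25. The remaining cells of the DMSO vehicle library held Mgp at 2468 CPM, beside 3769 CPM in its mesenchymal cells, against 218 CPM with ATRA+agonist. The remaining cells also held tenocyte markers, at 368 CPM with ATRA+agonist and 1488 CPM with DMSO vehicle, and mesenchymal progenitor markers, at 1238 and 2367 CPM. In arterial cells these lists stood at 5.58 and 2.74 CPM and at 50.2 and 461 CPM. The part of such transcripts in these opposite signs was not tested.

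A further set was lower in arterial and higher in remaining cells with ATRA+agonist. Aqp1 had a ratio of -0.48 in arterial cells, 0.42 in remaining and 0.29 in venous-gated cells. Gpihbp1, which holds lipoprotein lipase on the vessel wall, had -0.41 and 0.10, Fabp4 -0.24 and 0.05, Cd36 -0.22 and 0.05, Flt1 -0.19 and 0.03, and Cav1 -0.14 and 0.11 in arterial and remaining cells. Cyp26b1 had -1.14 in arterial, 0.25 in remaining and 0.37 in venous-gated cells.

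Against venous-gated cells the sign differed for Vcam1 (-0.93 in arterial and 0.23 in venous-gated cells), Egr1 (-0.16 and 0.30), Plvap (1.0 and -0.31), Gsn (-3.92 and 1.23) and Dcn (-2.74 and 0.91). The arterial values of Gsn, Dcn and Plvap turned or shrank when the cell with most UMIs was left out. Outside the filters, 34 DMSO vehicle barcodes passed the arterial gate, against 1 with ATRA+agonist, and the hemoglobin limit alone had kept out 32 of the 34.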

How the results depend on the processing

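With 1 library of 2 pooled mice per group, differences between mice cannot be read, and genes under 50 UMIs were not called. The ratio of arterial shares kept its direction under every setting run, and so did the MHC class II median (-4.0 to -3.66). The counts of genes followed depth and the UMI minimum: 14 higher and 47 lower after thinning to 1000 UMIs, 286 and 302 with a minimum of 20 UMIs, and 21 and 70 with a minimum of 100, against 70 and 112. The arterial marker median of 0.24 became 0.17 after thinning and 0.32 without cells with lymphatic or mesenchymal transcripts. With the venous comparison dropped, the interferon-response median became -1.02 and the glucocorticoid median -0.28. Without the hemoglobin filter they became -0.77 and -0.34. The retinoic acid pathway median became -0.01 with at least 3 arterial UMIs. The cause of these changes was not tested. The sign turned for the Id and BMP median (0.04 with at least 3 arterial UMIs, 0.03 with a minimum of 20 UMIs), after thinning for Cox4i1 (-0.08), Hsp90ab1 (0.02), Il6st (0.13), Mt2 (0.12), Plxna2 (0.09), Pparg (0.32), Sparc (-0.06) and Plvap (-0.11), with at least 3 arterial UMIs for Egr1 (0.01) and Plvap (-0.67), without the top cell for Plvap (-0.34) and Smoc2 (0.19), for Cyp26b1 without the venous comparison (0.14) and for Dcn with doublets removed (0.89). Of 3181 values of named genes, 3013 moved by less than their counting interval, and of 340 values of the 23 other lists 304 did. Median-of-ratios scaling shifted all genes by 0.02. No paired analysis was possible because each group is 1 library.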
